A study of Oryctolagus cuniculus with 4 samples.

Results

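Axon guidance ligands and receptors were followed through the cells of the rabbit bladder mucosa, in normal tissue and 10 days after injury. They were taken as all genes of the count tables whose symbol names a semaphorin, plexin, neuropilin, ephrin, Eph receptor, slit, ROBO receptor, numbered netrin, UNC5 receptor or DCC, which gave 53 of 18475 genes. Only 9771 of the genes carried a symbol, so that relatives listed by identifier alone, among them any gene for the co-receptor NRP1, were not analysed here. The samples came from adult New Zealand rabbits. Injury_1 and Injury_2 were mucosa from a focal mucosal resection, harvested at day 10, and Normal_1 and Normal_2 were mucosa of bladders without injury. The rabbits carried no transgene or other treatment named in the labels, and the study calls the 2 samples of each condition biological replicates. With 2 samples against 2, the p-values below measure only the spread between these 4 samples.

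Axon guidance genes were first known for steering growing nerve fibres, and most of them also act between cells outside the nervous system. Secreted class 3 semaphorins bind a neuropilin that is paired with a plexin, while membrane-bound semaphorins mostly bind plexins directly. Ephrins are ligands held on the cell surface, and their Eph receptors are tyrosine kinases, so that both sides of a contact can respond. Slits are secreted and bind ROBO receptors, and netrins are laminin-related proteins that bind DCC and UNC5 receptors. In blood vessels ephrin-B2 is known as a mark of arteries, EphB4 as a mark of veins and neuropilin-2 as a protein of veins and lymphatics.

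The 4 samples held 5823 to 6884 cell barcodes and 28745017 to 47881609 unique molecular identifiers (UMIs, each standing for 1 captured RNA molecule), and Normal_1 was the shallowest. The quality limits of the study, as applied here, left 21945 cells, 4308 to 6081 per sample, and any pair of samples shared 4 to 12 cell barcodes. Clusters were named from marker genes as fibroblast-like (9067 cells), endothelial-like (5471), mural, that is smooth muscle and pericyte (2119), epithelial-like (1532), macrophage-like (1428), T cell-like (961) and mast cell-like (228). Glia-like (116) and neutrophil-like cells (214) had under 20 cells in at least 1 sample, and 809 cells stayed unnamed. No class levels are given for these cells, and every statement below on a highest, next or other class leaves them out. The tissue label is urothelium, but epithelial-like cells were 6.98% of the cells kept and fibroblast-like cells 41.3%. The mast cell-like class was led by HDC, FCER1A and KIT and also by IL9 and IL1RL1, and it rests on 28 to 88 cells per sample. Levels are CPM, meaning the UMIs of a gene per 1000000 UMIs summed over the cells of a class in 1 sample, and each mean ± SD is over n = 4 samples. A sum does not tell more cells with a transcript from more transcripts per cell. Differences between classes are descriptions without a test, since the classes were themselves built from expression.

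In these cells 19 of the 53 genes reached a mean of at least 20 CPM in 1 class or more. Endothelial-like cells were the highest class for 9 of the 19 and fibroblast-like cells for 5, and 14 of the 19 had the same highest class in all 4 samples. Of the other 34 genes, UNC5A and UNC5CL had 0 UMIs in all cells kept, and the rest reached class means of 0.0145 (UNC5D) to 19.1 CPM (SLIT2). The netrins NTN1 (11.0 CPM) and NTN4 (18.8 CPM) and the receptor DCC (1.31 CPM) were among those under the limit. Summed over all 53, the guidance genes took 912 to 1686 CPM in fibroblast-like cells, 731 to 1119 CPM in endothelial-like cells and 142 to 191 CPM in T cell-like cells.

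Among the class 3 semaphorins, SEMA3C, a secreted ligand of neuropilins, was a fibroblast transcript. It measured 401 CPM (Injury_1) and 538 CPM (Injury_2) after injury and 131 CPM (Normal_1) and 281 CPM (Normal_2) in normal tissue in fibroblast-like cells, against a mean of 34.2 ± 18.2 CPM in mural cells, the next class. No described mural sub-cluster had a SEMA3C mean above 22.3 CPM. SEMA3F, which signals through neuropilin-2, was highest in endothelial-like cells at 84.2 ± 33.7 CPM. It was followed by epithelial-like cells at 52.5 ± 25.6 CPM, and the ranges of these neighbours overlapped. SEMA3F stood lowest in Normal_1 in the endothelial-like (37.2 CPM), epithelial-like (18.0), fibroblast-like (14.4) and mural cells (9.28), so that 1 normal library differed from the other one in 4 classes.

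Of the 10 other semaphorins, 3 reached 20 CPM. SEMA6A, a ligand of class A plexins, measured 206 ± 102 CPM in endothelial-like cells and 46.7 ± 7.47 CPM in T cell-like cells, the next class. SEMA6D was at 23.0 ± 4.03 CPM in endothelial-like and 17.5 ± 8.50 CPM in mural cells, with overlapping ranges and with 0 UMIs in T cell-like and mast cell-like cells. SEMA4D, known as CD100 and as a ligand of plexin-B1, was highest in T cell-like cells (72.3 ± 31.0 CPM), followed by mast cell-like (52.0 ± 26.4 CPM) and macrophage-like cells (45.7 ± 15.8 CPM). The order of these 3 leukocyte classes was not the same in all samples, and the mast cell-like value rests on 5 to 12 UMIs per sample.

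The 3 ephrins of 6 that reached 20 CPM were highest in endothelial-like cells. EFNB2 (ephrin-B2) reached 41.5 ± 12.2 CPM in endothelial-like cells against 15 ± 4.37 CPM in fibroblast-like cells, without overlap of the samples. EFNA1 measured 29.3 ± 6.29 CPM and EFNB1 31.7 ± 10.5 CPM in endothelial-like cells, but EFNB1 was also at 24.3 ± 7.88 CPM in epithelial-like cells and its ranges overlapped. SLIT3, a secreted ligand of ROBO receptors, measured 767 CPM (Injury_1) and 623 CPM (Injury_2) after injury and 308 CPM (Normal_1) and 543 CPM (Normal_2) in normal tissue in fibroblast-like cells. Mural cells followed with 136 ± 30.6 CPM. Macrophage-like cells held SLIT3 at 10.6 to 52.3 CPM, and there the 6 fibroblast markers of the tables summed to 1294 to 6350 CPM, against 61409 to 136489 CPM in fibroblast-like cells. Their part in the macrophage value was not tested. SLIT2, a relative of SLIT3, reached 19.1 ± 7.16 CPM in fibroblast-like cells.

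The receptors were spread over more classes. ROBO4, the ROBO family member of vessels, measured 297 CPM (Injury_1) and 213 CPM (Injury_2) after injury and 199 CPM (Normal_1) and 256 CPM (Normal_2) in normal tissue in endothelial-like cells, and every other class mean was at or below 14.7 CPM. ROBO2, a slit receptor, was even between samples in fibroblast-like cells (65.3 to 71.7 CPM) and reached 12.3 ± 7.91 CPM in epithelial-like cells, the next class. UNC5B, a netrin receptor, was at 100 ± 32.4 CPM in epithelial-like cells, 65.8 ± 13.8 CPM in endothelial-like cells, 47.2 ± 32.0 CPM in fibroblast-like cells and 39.8 ± 13.5 CPM in mural cells. These neighbours overlapped, and in Injury_2 the endothelial-like level (80.6 CPM) exceeded the epithelial-like one (73.2 CPM). Its relative UNC5C was at 39.1 ± 22.6 CPM in fibroblast-like cells and at 3.26 ± 1.31 CPM in mural cells, the next class.

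EPHA1, a receptor for A-type ephrins, was an epithelial transcript, with 1127 of its UMIs in epithelial-like cells at 47.1 ± 31.9 CPM and no other class mean above 0.492 CPM. EPHB2, a receptor for B-type ephrins, was at 23.1 ± 7.33 CPM in fibroblast-like cells against 1.49 ± 1.65 CPM in mural cells. EPHA4, which can bind both types, was at 27.6 ± 4.88 CPM in endothelial-like cells and 14.7 ± 8.13 CPM in mural cells, with overlap. EPHA3 was at 20.7 ± 13.2 CPM in mural cells and 16.1 ± 2.88 CPM in fibroblast-like cells, also with overlap. NRP2 (neuropilin-2) was at 67.2 ± 20.9 CPM in macrophage-like cells and 53.3 ± 5.39 CPM in endothelial-like cells, neighbours that changed places between samples. PLXND1, a plexin of vessels, was at 41.2 ± 13.0 CPM in endothelial-like cells and 18.4 ± 3.24 CPM in mural cells, without overlap.

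**Figure D1:**
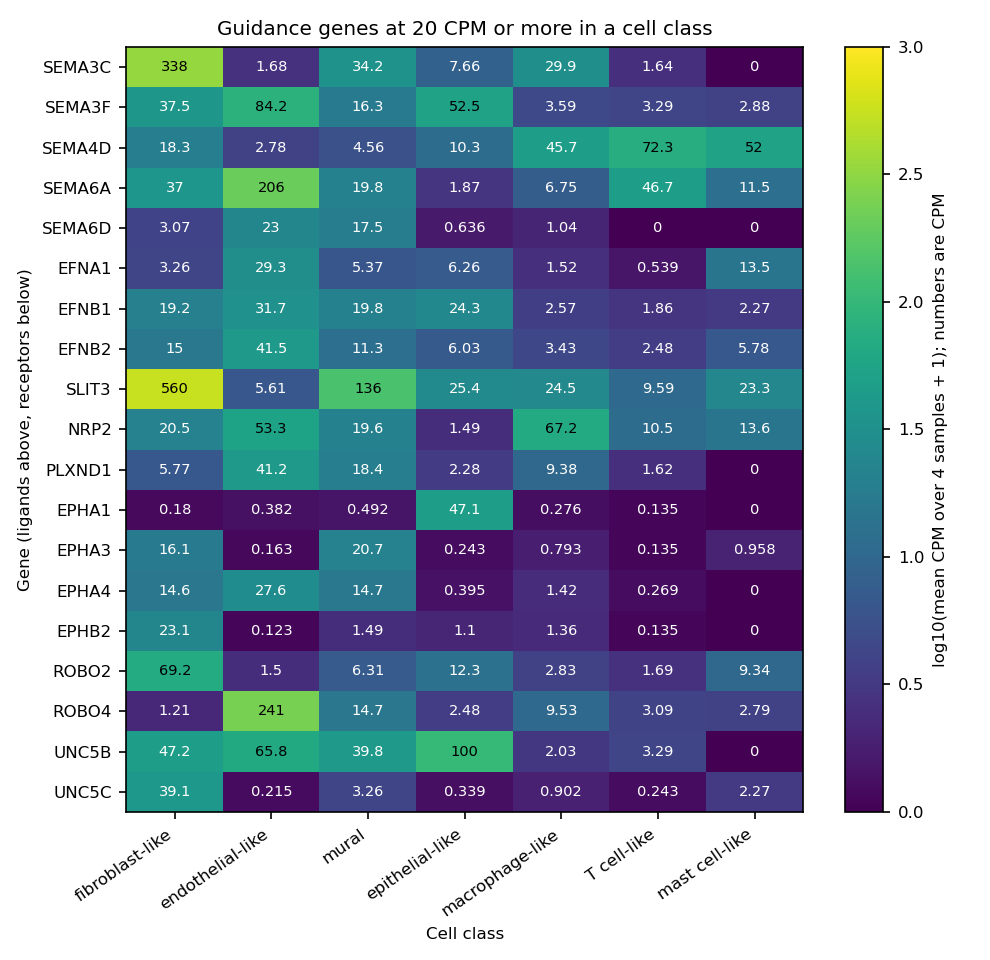
Mean level of the 19 guidance genes that reached 20 CPM in a class (rows, ligands above and receptors below) in the 7 cell classes (columns), as colour on a log10 scale and as CPM in the cells, each a mean over 4 samples. SLIT3 (560) and SEMA3C (338) stand out in fibroblast-like cells, ROBO4 (241) and SEMA6A (206) in endothelial-like cells, UNC5B (100) and EPHA1 (47.1) in epithelial-like cells.

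Within the endothelial-like cells, sub-clusters built without the 53 genes showed where the vascular ligands and receptors lie. Sub-cluster 3 was arterial endothelial-like, sub-cluster 1 venous endothelial-like, and sub-clusters 0 (led by ESM1, CA2 and CXCR4) and 2 (led by ADH6, NT5E and ADGRG6) stayed unnamed. The small sub-cluster 5 (76 cells) was arterial endothelial-like too, with 0, 2, 43 and 31 cells in Injury_1, Injury_2, Normal_1 and Normal_2. It held NRP2 at 0 CPM and SEMA6A at 65.2 CPM, measured in the normal samples only. Below, the arterial endothelial-like sub-cluster means sub-cluster 3. EFNB2 followed the arterial name, with 110, 99.2, 35.7 and 68.2 CPM in sub-cluster 3 in Injury_1, Injury_2, Normal_1 and Normal_2, against 28.9, 23.4, 12.1 and 26.3 CPM in the venous endothelial-like one. Its receptor EPHB4 was at 3.23 to 4.90 CPM (means) in sub-clusters 0 to 3, so its level did not divide sub-cluster 3 from the venous endothelial-like one. The small lymphatic endothelial-like sub-cluster held 24.1 CPM of EPHB4, but on 9 UMIs.

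UNC5B followed the sub-clusters in which EFNB2 was high. It measured 148 ± 78.6 CPM in the arterial endothelial-like sub-cluster and 115 ± 13.7 CPM in sub-cluster 0, against 5.13 ± 3.62 CPM in the venous endothelial-like one and 2.30 ± 1.82 CPM in sub-cluster 2. NRP2 was highest in the venous endothelial-like sub-cluster at 65.8 ± 10.3 CPM, followed by sub-cluster 0 at 54.4 ± 4.54 CPM, sub-cluster 2 at 39.9 ± 12.4 CPM and the arterial endothelial-like one at 35.4 ± 10.2 CPM. Its ligand SEMA3F reached 108 ± 40.8 CPM in sub-cluster 0 and was 107 ± 56.2 CPM in the arterial endothelial-like sub-cluster, against 63.9 ± 28.0 CPM in the venous endothelial-like one, and these ranges overlapped. SEMA6D was at 30.5 ± 9.91 CPM in the arterial endothelial-like and 6.88 ± 5.43 CPM in sub-cluster 2.

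The lymphatic endothelial-like sub-cluster had 87 cells, of which Injury_1 gave 27, Injury_2 52, Normal_1 0 and Normal_2 8, so that its levels come from the 2 injured samples alone. There SEMA3D, a secreted semaphorin, measured 67.9 and 142 CPM. In the other described endothelial sub-clusters SEMA3D had 0 UMIs or, in the venous endothelial-like one, 1 UMI. UNC5B measured 109 and 217 CPM and SEMA4D 61.2 and 17.8 CPM in the lymphatic endothelial-like cells. NRP2 was at 60.6 CPM there, close to its venous level.

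In fibroblast-like cells SLIT3 was highest in the sub-cluster where its receptor ROBO2 was lowest, and lowest where ROBO2 was highest. Only these ends are given here, and the order of the sub-clusters between them was not compared. SEMA3C ran from 553 ± 275 CPM in sub-cluster 0 (led by LVRN, ITGBL1 and SFRP2) to 60.2 ± 26.2 CPM in sub-cluster 3 (led by MMP3, MMP10 and PTPRQ). SLIT3 ran the same way, from 810 ± 277 to 163 ± 79.0 CPM. The slit receptor ROBO2 ran against it, from 32.2 ± 13.8 CPM in sub-cluster 0 to 167 ± 57.4 CPM in sub-cluster 3, and in each sample its level was higher in sub-cluster 3.

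Of the other fibroblast genes with a wide spread, SEMA4D was at 49.4 ± 5.87 CPM in sub-cluster 3 and 36.4 ± 23.0 CPM in sub-cluster 1 (led by OTULINL, FAM162B and FGFR4) but at 2.31 ± 1.79 CPM in sub-cluster 0. SLIT2 was at 27.2 ± 7.60 CPM in sub-cluster 2 (led by TNFAIP6, CCL2 and NOCT) and at 1.79 ± 1.35 CPM in sub-cluster 3. EPHB2 was at 36.0 ± 11.5 CPM in sub-cluster 0 and 3.70 ± 1.39 CPM in sub-cluster 3. UNC5B was at 114 ± 44.3 CPM in sub-cluster 3 and 24.2 ± 16.7 CPM in sub-cluster 0.

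In mural cells SLIT3 measured 267 ± 32.3 CPM in sub-cluster 1 (led by RERGL, SORBS2 and KCNAB1) and 4.97 ± 9.94 CPM in the pericyte-like sub-cluster 3. UNC5B was higher in both pericyte-like sub-clusters, at 62.3 ± 17.8 and 88.6 ± 15.6 CPM, than in sub-cluster 1, at 15.5 ± 9.80 CPM. EPHA3 was at 38.5 ± 15.8 CPM in sub-cluster 0, which was led by the chemokines CCL2, CCL11 and CCL19, and at 5.07 ± 6.26 CPM in pericyte-like sub-cluster 3. EPHA4 was at 30.9 ± 18.6 CPM in sub-cluster 1 and EFNB1 at 45.1 ± 22.4 CPM in pericyte-like sub-cluster 3. Epithelial sub-clusters differed less. EPHA1 was at 63.3 ± 31.8 CPM in sub-cluster 0 (led by RNF39, AMOTL2 and FAM13A) and at 33.0 ± 26.5 CPM in sub-cluster 1 (led by F3, PTHLH and ITGA2), and UNC5B at 93.2 ± 28.9 and 105 ± 28.0 CPM. In sub-cluster 2 (led by S100A12, PIGR and SPP1), measured in 3 samples because Normal_2 had 12 cells, UNC5B was at 64.7 ± 8.41 CPM and EPHA1 at 60.1 ± 46.2 CPM. SLIT3 (15.7 to 21.9 CPM as means) and SEMA3F (47.5 to 56.3 CPM) differed little between the 3 described epithelial sub-clusters.

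**Figure D2:**
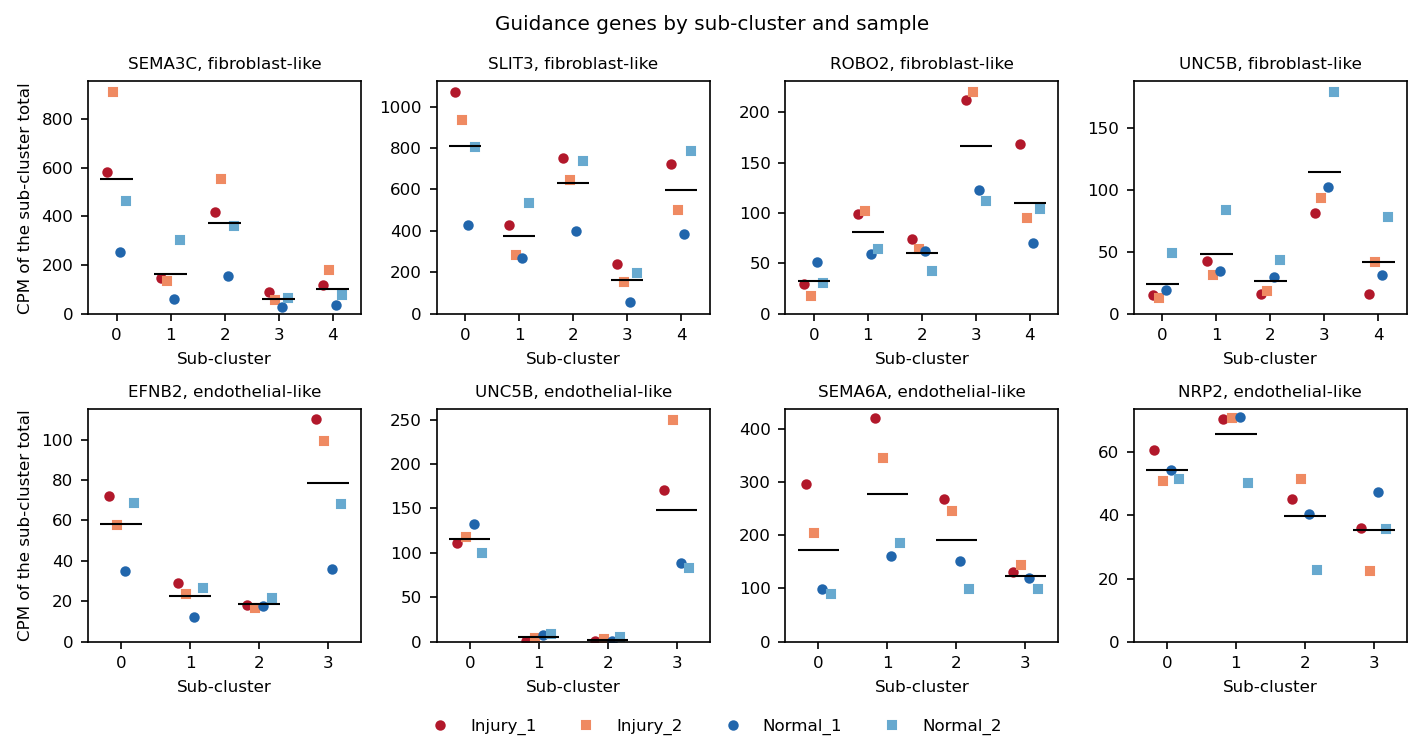
Level of 4 genes by sub-cluster of the fibroblast-like cells (top) and of 4 genes by sub-cluster of the endothelial-like cells (bottom), in CPM of the sub-cluster total, for sub-clusters measured in 4 samples. Each point is 1 sample and each line the mean, and SEMA3C falls from 553 in fibroblast sub-cluster 0 to 60.2 in sub-cluster 3 while ROBO2 goes from 32.2 to 167.

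Injury was compared with normal mucosa within each class by the quasi-likelihood test of edgeR on summed UMI counts, with p-values adjusted over all genes by the Benjamini-Hochberg method and a gene called at an adjusted p under 0.05. In fibroblast-like cells NTN4, UNC5C and SEMA3C were higher and SEMA4D and EFNB1 lower in both injured samples than in both normal ones, but none of the 42 guidance genes tested was called, as was none of 8845 genes (0% called). DESeq2, run beside it without a filter on low counts, called 5 of 51 guidance genes, against 1.85% of all 13687 genes it tested. UNC5C, NTN4 and EPHA6 were called as higher and SEMA4D and EFNB1 as lower. At an unadjusted p under 0.05 there were 10 guidance genes (23.8% of the 42), 7 of them higher and 3 lower, against 10.8% of all genes. After TMM scaling, which sets the samples to a common level, both injured samples lay above both normal ones for 12 of the 42 (21.4% of all genes) and below them for 12 (21.3% of all genes).

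UNC5C, the netrin receptor, measured 53.3 and 63.4 CPM in the fibroblast-like cells of the injured samples and 20.7 and 19.1 CPM in the normal ones. Its log2 fold change was 1.67 (SE 0.23) with an edgeR adjusted p of 0.113, and the injured samples lay above the normal ones in 4 of the 5 fibroblast sub-clusters measured in 4 samples. NTN4, a secreted netrin, measured 26.0 and 32.2 CPM against 6.74 and 10.2 CPM, with a log2 fold change of 1.86 (SE 0.33) and an edgeR adjusted p of 0.159. NTN4 lay higher in both injured samples in all 5 of these sub-clusters, which share their samples and are not separate tests.

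SEMA4D measured 7.68 and 8.99 CPM in injured and 24.4 and 32.1 CPM in normal fibroblast-like cells, with a log2 fold change of -1.65 (SE 0.29) and an edgeR adjusted p of 0.159. In sub-cluster 1 it measured 15.8 and 17.6 CPM after injury and 52.3 and 59.8 CPM in normal samples, while in sub-cluster 3 the groups overlapped. EFNB1, a membrane-bound ligand of EphB receptors, measured 9.37 and 10.9 CPM against 30.8 and 25.7 CPM (log2 fold change -1.35, SE 0.25), and was lower in both injured samples in all 5 sub-clusters. SEMA3C, at the values given above, had a log2 fold change of 1.28 (SE 0.45). UNC5B measured 24.5 and 27.8 against 42.9 and 93.7 CPM, with a log2 fold change of -1.30 (SE 0.43). UNC5B and SEMA4D were highest and SEMA3C lowest in sub-cluster 3. It held 137 of 2072 cells in Injury_1, 250 of 2448 in Injury_2, 238 of 1244 in Normal_1 and 783 of 3303 in Normal_2. UNC5B was lower in both injured samples in 3 of the 5 sub-clusters, and SEMA3C higher in 3. The part of the sub-cluster mix in the class values was not tested. EPHA6, another receptor for A-type ephrins, rested on 88 and 70 UMIs after injury and on 8 and 9 UMIs in normal samples.

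**Figure D3:**
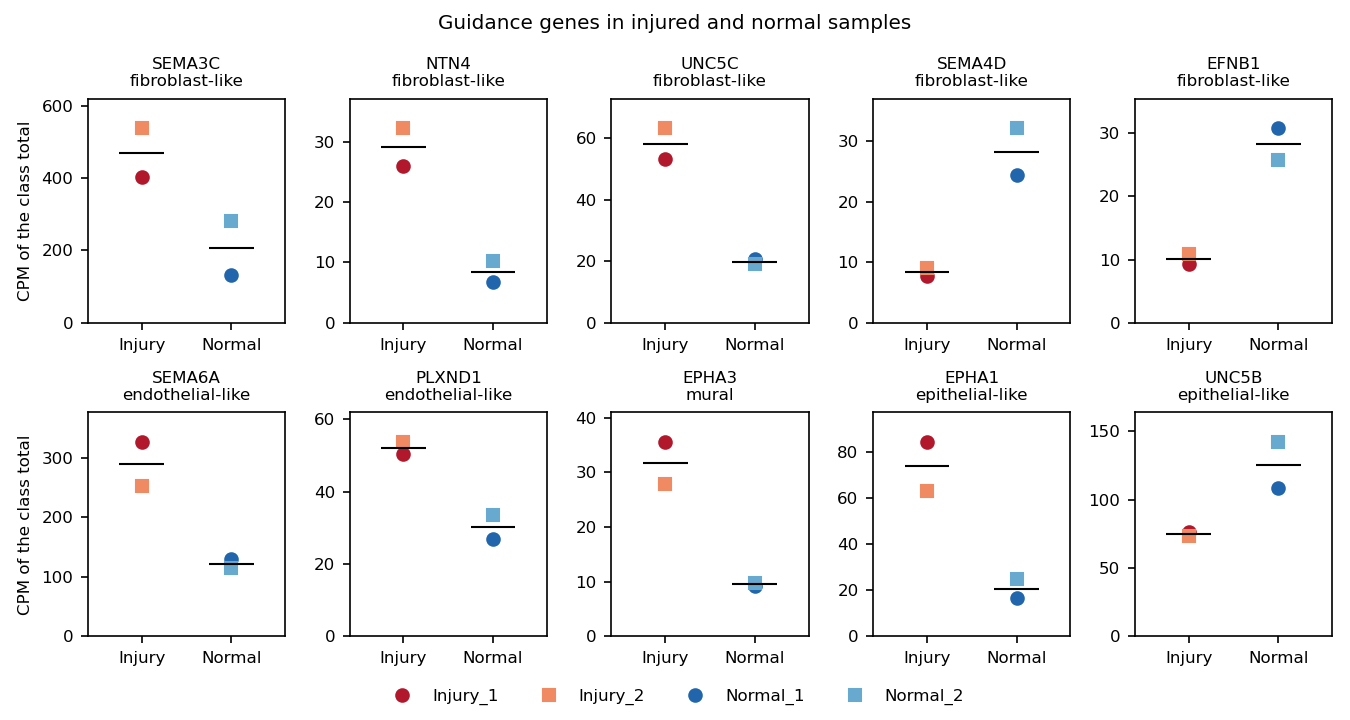
Level of 10 genes in 1 class each, in CPM of the class total on axes that start at 0, with 1 point per sample and a line at the mean of each condition. The genes were chosen by non-overlap or after their values were seen, so the lack of overlap in every panel is no result. After TMM scaling, 18.6 to 27.5% of all genes in these classes had both injured samples above both normal ones, and 18.9 to 26.5% below. No gene shown was called by edgeR. SEMA6A was at 327 and 252 against 130 and 114 CPM in endothelial-like cells, and EPHA1 at 84.3 and 62.8 against 16.7 and 24.7 CPM in epithelial-like cells.

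In endothelial-like cells SEMA6A and PLXND1 were higher and EFNB1 lower in both injured samples, the largest changes among genes that reached 20 CPM in the higher condition and did not overlap. None of 28 guidance genes tested was called, as was none of 7573 genes (0% called), and DESeq2 called 1 of 48, SEMA6A (0.451% of all genes). At an unadjusted p under 0.05 there were 5 (17.9%, against 6.93% of all genes). Both injured samples lay above both normal ones for 9 (18.6% of all genes) and below for 3 (18.9% of all genes).

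SEMA6A measured 327 and 252 CPM in the injured and 130 and 114 CPM in the normal samples, a log2 fold change of 1.17 (SE 0.23) with an edgeR adjusted p of 0.470 and a DESeq2 adjusted p of 0.0374. The injured samples were above the normal ones in all 4 endothelial sub-clusters measured in 4 samples, with 420 and 344 against 161 and 186 CPM in the venous endothelial-like one and 130 and 144 against 119 and 98.4 CPM in the arterial endothelial-like one. PLXND1 measured 50.4 and 53.8 against 26.9 and 33.5 CPM (log2 fold change 0.69, SE 0.26, edgeR adjusted p 0.708), again apart in all 4 sub-clusters. EFNB1 measured 26.6 and 23.2 against 46.8 and 30 CPM (log2 fold change -0.68, SE 0.26). ROBO4, the ROBO family member of vessels, had a log2 fold change of 0.07 (SE 0.30), and its groups overlapped.

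In mural cells EPHA3 and SEMA6D were higher and ROBO4 lower in both injured samples. None of 23 guidance genes was called, as was none of 6506 genes (0% called), and DESeq2 called 1 of 47, ROBO4 (0.605% of all genes). At an unadjusted p under 0.05 there were 3 (13.0%, against 9.68% of all genes), and the injured samples lay above the normal ones for 4 (20.9% of all genes) and below for 3 (20.5% of all genes). EPHA3 measured 35.6 and 27.9 CPM after injury and 9.28 and 9.78 CPM in normal samples, with a log2 fold change of 1.74 (SE 0.30) and an edgeR adjusted p of 0.190. It was highest in the chemokine-led sub-cluster 0, which held 253 and 243 cells of the injured and 114 and 124 of the normal samples. In that sub-cluster EPHA3 measured 54.5 and 46.3 against 35 and 18.1 CPM. SEMA6D measured 16.3 and 29.9 against 12.2 and 11.7 CPM (log2 fold change 0.98, SE 0.39). Its change was 0.46 without Injury_2, and the groups were apart in 0 of the 4 mural sub-clusters.

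ROBO4 in mural cells rested on 11 and 4 UMIs after injury and on 38 and 84 UMIs in normal samples. Of these 137 UMIs, 119 lay in a sub-cluster of 51 cells led by the endothelial genes VWF, CLU and RAMP2, in which 68.6% of the cells had a high doublet score, and 9 lay in the 4 described mural sub-clusters. The 9 endothelial markers, all detected, summed to 102 and 102 CPM in the mural cells of the injured samples and to 289 and 467 CPM in those of the normal samples. Their part in the ROBO4 difference was not tested.

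In epithelial-like cells EPHA1 was higher and UNC5B lower in both injured samples. None of 22 guidance genes was called, against 117 of 7046 genes (1.66% called). DESeq2 called 3 of 44, EPHA1 and SEMA3A as higher and ROBO4 as lower (4.04% of all genes). At an unadjusted p under 0.05 there were 7 (31.8%, against 20.5% of all genes), 2 of them higher and 5 lower. The injured samples lay above the normal ones for 4 (27.5% of all genes) and below for 7 (26.5% of all genes). EPHA1 measured 84.3 and 62.8 CPM after injury and 16.7 and 24.7 CPM in normal samples, with a log2 fold change of 1.56 (SE 0.34) and an edgeR adjusted p of 0.0869. It was 91.1 and 88.1 against 25.4 and 48.6 CPM in sub-cluster 0 and 67.6 and 39.5 against 10.0 and 14.7 CPM in sub-cluster 1. UNC5B measured 76.6 and 73.2 against 109 and 142 CPM, with a log2 fold change of -1.02 (SE 0.28) and an edgeR adjusted p of 0.128. EFNB1 measured 24.8 and 17.1 against 35.1 and 20.1 CPM, which overlap as CPM and are apart only after TMM scaling, with a log2 fold change of -0.63 (SE 0.32). ROBO4 had 3 and 0 UMIs after injury and 12 and 22 UMIs in normal samples, where the 9 endothelial markers summed to 57.0, 71.6, 35.3 and 107 CPM in Injury_1, Injury_2, Normal_1 and Normal_2, and their part in it was not tested.

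SEMA3A, a secreted semaphorin that repels axons through neuropilin-1, was low but one-sided in epithelial-like cells. It had 26 UMIs in 25 of 566 cells of Injury_1 and 15 UMIs in 13 of 354 cells of Injury_2, and 0 UMIs in the 441 cells of Normal_1 and the 171 cells of Normal_2. Pooled over the samples, 41 UMIs gave 3.19 CPM after injury, and a count of 0 in normal samples allows up to 0.361 CPM (3 UMIs over both). The injured level was 8.83-fold that limit. The limit covers the counting error of the normal samples alone, and neither that of the 41 UMIs nor the spread between samples. Macrophage-like cells held 1 UMI of SEMA3A and T cell-like cells 0, at median depths of 6146 to 7445 and 3001 to 3883 UMIs per cell, against 11932 to 19902 in epithelial-like cells. Its edgeR adjusted p was 0.0693.

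In macrophage-like cells 8 guidance genes could be tested, and none was called, as was none of 5668 genes (0% called), with 0 called by DESeq2 (0.476% of all genes). At an unadjusted p under 0.05 there were 2 (25%, against 12.6% of all genes), namely NRP2 at 86.6 and 83.0 against 43.6 and 55.7 CPM (log2 fold change 0.68, SE 0.24) and SEMA4D at 66.9 and 48.6 against 35.7 and 31.8 CPM (log2 fold change 0.69, SE 0.25). Both injured samples lay above both normal ones for 4 of the 8 (24.1% of all genes) and below for 0 (20.8% of all genes). SEMA3C measured 40.1 and 48.3 against 2.65 and 28.4 CPM there, with 2 UMIs in Normal_1, beside the fibroblast marker sums given for this class. In T cell-like cells 3 genes could be tested and 0 were called, against 0.0267% of all genes, with 0 also by DESeq2 (0.357% of all genes) and 0 at an unadjusted p under 0.05. SEMA4D measured 92.1 and 92.2 CPM in the injured and 77.9 and 26.9 CPM in the normal T cell-like cells (log2 fold change 0.92, SE 0.43), from 18 and 11 UMIs in the normal samples. That change was 1.73 without Normal_1 and 0.31 without Normal_2.

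**Figure D4:**
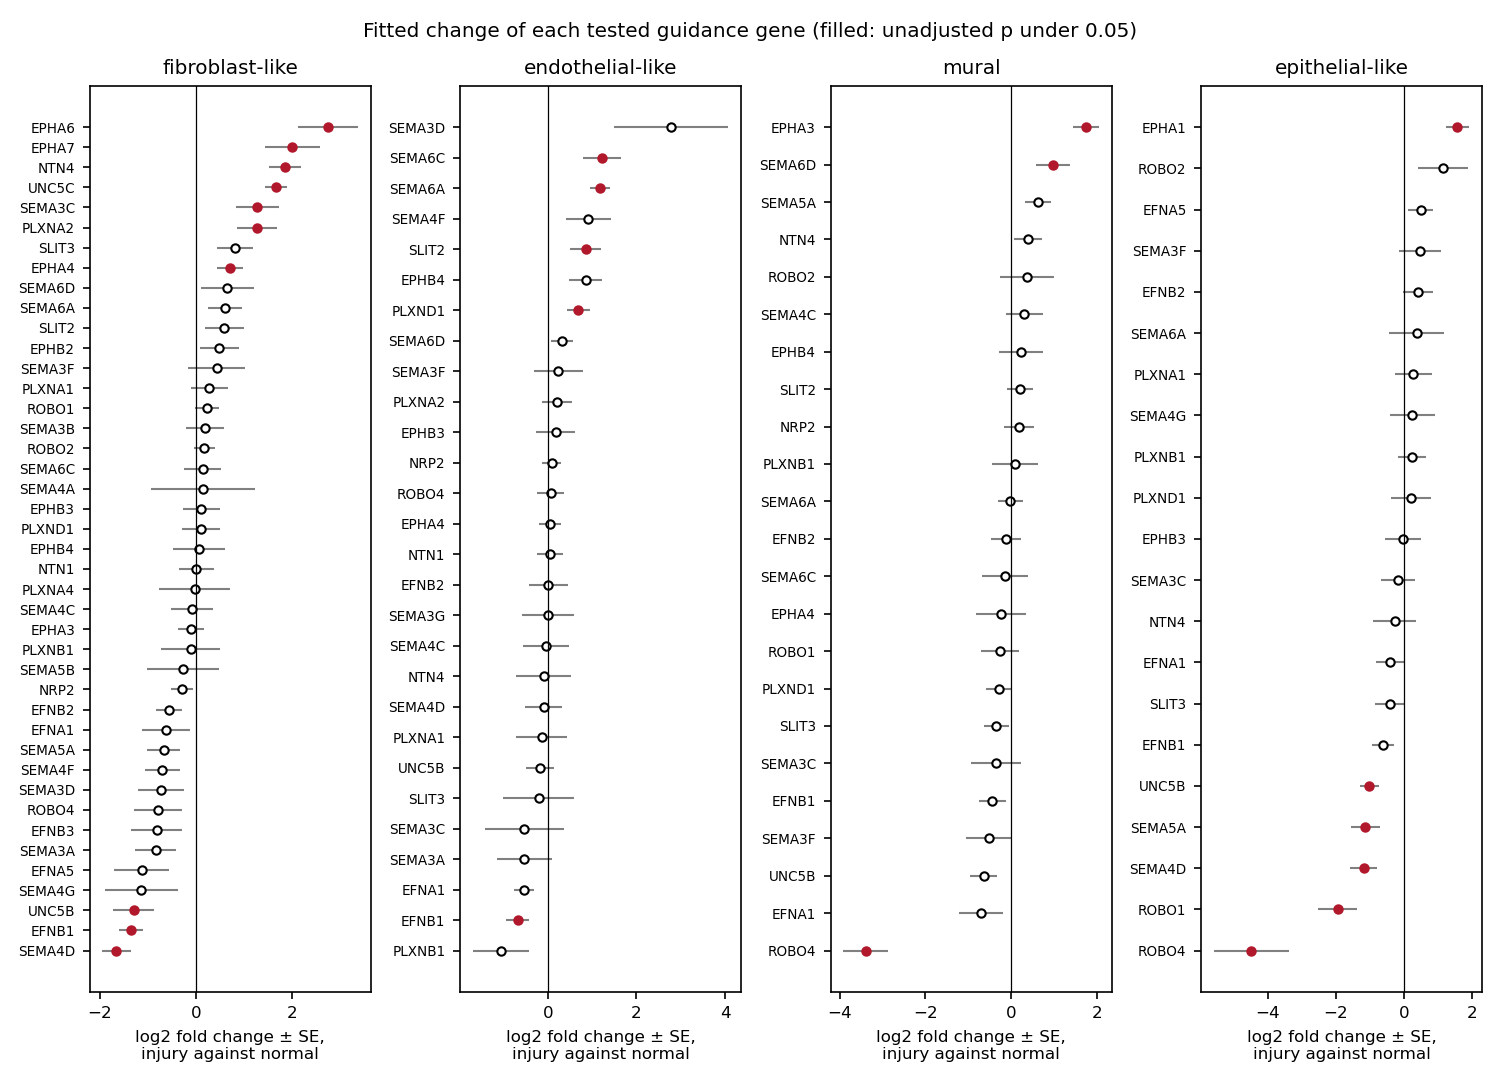
Fitted log2 fold change of every tested guidance gene, injury against normal, with its standard error, in 4 classes, on axes scaled per panel. Filled points have an unadjusted p under 0.05, and none passed the adjusted threshold. SEMA3A in epithelial-like cells is left out because both normal samples were at 0.

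Whether injury shifted a gene differently in 2 classes was tested as an interaction against fibroblast-like cells, with each sample as a term. Between endothelial-like and fibroblast-like cells 0 of 40 guidance genes were called by edgeR (0.0225% of all genes) and 0 by DESeq2 (0.436% of all genes), and 13 had an unadjusted p under 0.05 (32.5%, against 9.74% of all genes). Between mural and fibroblast-like cells 0 of 37 were called by edgeR (0.267% of all genes) and 1, SEMA3C, by DESeq2 (0.48% of all genes), with 10 at an unadjusted p under 0.05 (27.0%, against 10.5% of all genes). The SEMA3C changes were 1.28 (SE 0.45) in fibroblast-like and -0.35 (SE 0.58) in mural cells on the log2 scale. Between epithelial-like and fibroblast-like cells 1 of 37 was called (1.45% of all genes), with 10 at an unadjusted p under 0.05 (27.0%, against 16.7% of all genes). DESeq2 called 3 in this difference, SEMA3A, SEMA3C and SLIT3 (1.91% of all genes). The gene called by edgeR was SEMA3A, with an edgeR adjusted p of 0.0354 for the difference. In fibroblast-like cells SEMA3A measured 5.76 and 4.8 CPM after injury and 14.7 and 6.41 CPM in normal samples, the opposite direction to its epithelial counts. The call was lost without Injury_1 (edgeR adjusted p 0.199) and without Injury_2 (0.0915).

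Genes of the same pathways outside the 53 were counted from 3 lists. Of the vascular growth factors and receptors that share neuropilins, 6 of 9 had a row in the tables, of other guidance genes such as neogenin and the FLRT family 10 of 20, and of the effectors that carry the signals to the cytoskeleton 34 of 62. No gene of any list was called by edgeR in any of the 6 classes. DESeq2 called 1, the growth factor VEGFA, lower in injured epithelial-like cells, where it called 4.04% of all genes. In fibroblast-like cells the effectors had 34 genes tested, 3 of them at an unadjusted p under 0.05 (8.82%, against 10.8% of all genes), and a median log2 fold change of -0.05 against 0.00 over all genes. In endothelial-like cells the 4 growth factor genes tested had a median log2 fold change of 0.62 against -0.01 over all genes. Of these 4 genes, 2 had an unadjusted p under 0.05 (50%, against 6.93% of all genes). The 31 effectors had a median of 0.02 there, with 4 at an unadjusted p under 0.05 (12.9%, against 6.93% of all genes). In mural cells the same list of growth factors had -0.54 over 4 genes, with 2 at an unadjusted p under 0.05 (9.68% of all genes), and in epithelial-like cells the 26 effectors had -0.09, with 6 (23.1%, against 20.5% of all genes). The guidance genes themselves had medians of 0.09 in fibroblast-like, 0.05 in endothelial-like, -0.12 in mural and 0.08 in epithelial-like cells.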

How the data were processed

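Single-cell 3' RNA sequencing was performed on 4 rabbit bladder mucosa samples, and the authors deposited UMI counts per gene and cell barcode made with Cell Ranger 6.0.1. The genome build is not given in the sources used here, so no coordinates or sequences are printed. The limits stated by the study were applied, namely a minimum of 500 UMIs and of 200 genes per cell and no more than 15% of UMIs from mitochondrial genes. They left more cells in both conditions than the study kept. Samples were integrated in Seurat 5.3.0 (R 4.3.3) on 2000 variable genes, 9 of them guidance genes, with 30 principal components and a resolution of 0.8, and clusters were named from marker lists. Sub-clusters were built without the guidance genes (20 components, resolution 0.3), and levels are given where a sample had at least 20 cells. Doublets were scored with Scrublet through scanpy 1.11.5 and kept, with an alternative leaving out the top 5% of each sample.

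UMIs were summed per class and sample and compared across samples in edgeR 4.0.16 by its quasi-likelihood test (filterByExpr, TMM scaling, Benjamini-Hochberg adjustment over all genes, threshold 0.05), with DESeq2 1.42.0 as an alternative. Within classes DESeq2 was run without filterByExpr and tested more genes, from 32 guidance genes in T cell-like to 51 in fibroblast-like cells. Both tests are two-sided. The edgeR script was first tested on simulated data. It called 57.7% (fibroblast-like) to 83.3% (macrophage-like) of 4-fold changes. Of 2-fold changes it called 2.04% (fibroblast-like) to 14.4% (mural), so most changes of that size would not be called. False calls were 4 of 70 in epithelial-like and 17 of 104 in macrophage-like cells. Other alternatives were RLE size factors, no filter on low counts, a mitochondrial limit of 10%, classes rebuilt without the guidance genes, a replicate block and leaving out each sample. Levels are given for genes with a class mean of at least 20 CPM. In each comparison the genes called are named, and otherwise up to 3 with the largest change among those with a mean of 20 CPM or more in the higher of the 2 conditions whose injured and normal samples did not overlap. A gene can pass that limit through the condition in which it is high alone, so this choice is no evidence of a change. NTN4, SEMA4D and UNC5C did so in fibroblast-like, EPHA3, ROBO4 and SEMA6D in mural and SEMA3C in macrophage-like cells. In each set of sub-clusters the 5 genes with the widest ratio between sub-clusters (CPM + 5) are named, as are EFNB2 with EPHB4 and class 3 semaphorins with NRP2. EFNB1, EPHA6, SEMA3C and UNC5B in the fibroblast comparison, genes called by DESeq2 alone, and the other genes given by sub-cluster were chosen after their values were seen. The members and all gene lists were chosen with earlier results of these data known. Counting limits use 3 UMIs as the floor.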

Additional observations from a re-analysis of the deposited data

Results flagged for a closer look

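The injury effect on SEMA3A, a secreted semaphorin, differed between epithelial-like and fibroblast-like cells in the edgeR interaction test, with an adjusted p of 0.0354, and it rests on 41 epithelial UMIs in the injured samples and 0 in the normal ones.

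In 5 further genes both injured samples moved one way in 1 class and the other way in another class. In these pairs of classes the difference itself was not tested. In a single class, 18.6 to 27.5% of all genes had both injured samples above both normal ones, and 18.9 to 26.5% below. The share of all genes that moved both ways was not counted. SEMA4D was higher after injury in macrophage-like (log2 fold change 0.69, SE 0.25) and T cell-like cells (0.92, SE 0.43). It was lower in fibroblast-like (-1.65, SE 0.29) and epithelial-like cells (-1.19, SE 0.39). NRP2 was higher in macrophage-like (0.68, SE 0.24) and lower in fibroblast-like cells (-0.29, SE 0.24). PLXND1 was higher in endothelial-like (0.69, SE 0.26) and lower in mural cells (-0.29, SE 0.30). PLXNB1, a receptor of SEMA4D, was higher in epithelial-like (0.23, SE 0.41) and lower in endothelial-like cells (-1.05, SE 0.63). The endothelial-like value rests on 7, 3, 11 and 19 UMIs in Injury_1, Injury_2, Normal_1 and Normal_2. SEMA5A, a membrane-bound semaphorin, was higher in mural (0.63, SE 0.30) and lower in epithelial-like cells (-1.14, SE 0.42).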

How the results depend on the processing

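Of 105 alternatives to the 10 counts, 70 left the count within 1.5 times and 35 moved it. For the 17 gene results no direction changed under any alternative run, 26 values passed the threshold in the alternative alone and 3 lost it. A percent in parentheses is the share of all genes called in the same fit. Against 0 called in each of the 6 classes, DESeq2 called 5 guidance genes in fibroblast-like (1.85%), 1 in endothelial-like (0.451%), 1 in mural (0.605%) and 3 in epithelial-like cells (4.04%). Without a filter on low counts 7 were called in fibroblast-like (3.65%), 2 in mural (2.6%), 5 in epithelial-like (8.02%) and 1 in macrophage-like cells (3.23%). In T cell-like cells 2, ROBO4 and EFNB1, were called as lower with classes rebuilt without the guidance genes (4.61%). Neither was among the 3 guidance genes tested in the main fit of this class. The rebuilt class held other cells, among them a cluster of 124 led by IL9, REM1 and GATA3. There 5297 genes were tested, against 3750 in the main fit. For the differences against fibroblast-like cells, the unfiltered counts were 4 in endothelial-like (2.46%), 7 in mural (2.1%) and 6 in epithelial-like cells (4.66%), and DESeq2 gave 1 in mural (0.48%) and 3 in epithelial-like cells (1.91%). The 10% mitochondrial limit gave 1 in mural (0.711%) and 0 in epithelial-like cells (1.62%), and leaving out high doublet scores gave 2 in epithelial-like cells (2.35%). With a limit of 50 CPM, 6 of 9 genes had the same highest class in all samples, against 14 of 19.

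Leaving out 1 sample leaves a group with 1, which is then assumed to vary like the others. The counts ranged from 0 to 3 in mural cells, 0 to 3 in epithelial-like cells, 0 to 1 in macrophage-like cells, and 0 to 5 (endothelial-like), 0 to 9 (mural) and 0 to 6 (epithelial-like) for the differences, and the count of genes with 1 highest class from 14 to 16. Without Normal_1 they were 3 in mural (3.13%), 2 in epithelial-like (5.57%) and 1 in macrophage-like cells (1.52%), and 5 (2.62%), 9 (5.56%) and 6 (12.4%) for the differences. Without Normal_2 they were 2 (9.17%), 3 (6.31%) and 1 (2.08%), and 2 (1.53%), 5 (4.22%) and 5 (8.82%). Without Injury_1 the mural count was 1 (0.72%). The SEMA3A difference was lost without Injury_1 (edgeR adjusted p 0.199), without Injury_2 (0.0915) and at the 10% mitochondrial limit (0.0524). The log2 fold change of SEMA3C in macrophage-like cells, 1.36, was 0.50 without Normal_1 and 4.06 without Normal_2, and that of ROBO4 in mural cells, -3.39, was -6.41 without high doublet scores. Without Normal_1, PLXND1 and EFNB1 in endothelial-like cells were at 0.45 and -0.45 and EFNB1 in epithelial-like cells at -0.31, and without Normal_2, UNC5B in epithelial-like cells was at -0.65. The cause of these changes was not tested.

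The labels do not say that a replicate number marks a shared animal, and same-numbered samples correlated in their deviations from the group means by -0.0285 to 0.184 over the 6 classes. With the replicate number as a block 6 guidance genes were called in fibroblast-like (3.04%) and 1 in mural cells (0.845%), and none in the other 4 classes. In T cell-like and macrophage-like cells 3 and 8 guidance genes had enough UMIs to be tested.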
